A study of Mus musculus with 8 samples.

Results

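*Mt1*, *Mt2*, *Mtf1*, *Slc30a1* and *Slc39a14*, genes of metallothionein and zinc handling, were taken by gene symbol from the table of counts, and all 5 were among its 12551 genes. The libraries were made from whole tibialis anterior (TA) muscle, a fast-twitch muscle of the lower hind limb, of male mice 7 weeks of age. The 4 WT mice carried both wild-type alleles of Klotho, and the 4 KL-/- mice, described as their littermates, were homozygous for a Klotho mutation that every cell of the body carries from birth. Both genotypes came from heterozygous parents on a mixed background, so the gene was not lost in muscle alone. Klotho is a hormone co-receptor made mainly in the kidney, and the study asked how its loss alters skeletal muscle.

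Metallothioneins are small proteins whose cysteines bind zinc and copper, and *Mt1* and *Mt2* encode the forms found in most tissues. The transcription factor MTF-1, encoded by *Mtf1*, senses free zinc and binds metal response elements near *Mt1*, *Mt2* and *Slc30a1*. The product of *Slc30a1*, ZnT1, exports zinc across the plasma membrane, and that of *Slc39a14*, ZIP14, imports zinc as well as manganese and iron that is not bound to transferrin. Metallothionein genes are also known to respond to glucocorticoids and to oxidative stress, and in muscle they are known from wasting states.

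*Mt1* and *Mt2* are neighbours on mouse chromosome 8. On mm10, the counted exons of *Mt2* lie between 94172618 and 94173567 and those of *Mt1* between 94179089 and 94180327, both on the plus strand with 3 exons each, and 5521 bases separate the genes. The coding sequences of GENCODE are shown because they carry the metal-binding cysteines and because they bear on whether reads of the genes can be told apart. Capitals mark the cysteine codons.
Mt1 coding sequence: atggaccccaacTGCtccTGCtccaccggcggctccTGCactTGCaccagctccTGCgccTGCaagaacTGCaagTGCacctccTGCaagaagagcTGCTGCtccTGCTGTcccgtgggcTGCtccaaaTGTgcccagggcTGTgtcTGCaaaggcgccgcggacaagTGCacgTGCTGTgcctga
Mt2 coding sequence: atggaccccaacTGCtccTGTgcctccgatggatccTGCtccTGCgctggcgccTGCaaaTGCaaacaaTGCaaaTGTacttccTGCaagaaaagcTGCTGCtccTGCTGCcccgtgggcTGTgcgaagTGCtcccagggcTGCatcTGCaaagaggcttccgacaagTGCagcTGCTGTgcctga
Each coding sequence has 186 bases, and 20 of its 61 codons before the stop encode cysteine, at the same 20 positions in both genes. The sequences are identical at 148 of 186 bases (79.6%), and the longest identical run is 20 bases. None of the 500 windows of 50 bases in the *Mt1* transcript occurs in any other annotated transcript on either strand. Of the 462 windows of *Mt2*, 210 are shared, all with *Gm45774*, an antisense gene that overlaps 401 exonic bases of *Mt2* and is not among the counted genes. The sources used here do not give the strand setting of the counting, and without strand reads of *Mt2* and of *Gm45774* cannot be told apart.

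The regions upstream of the RefSeq starts were examined because MTF-1 binds there. The 250 bases before the start are shown for the metallothioneins and for *Slc30a1*, on GRCm38.p6 and the plus strand, which is the strand of all 3 genes. Capitals mark matches, on either strand, to the core of the metal response element, searched as TGCACNC and TGCGCNC.
Mt1, chr8:94178839-94179088: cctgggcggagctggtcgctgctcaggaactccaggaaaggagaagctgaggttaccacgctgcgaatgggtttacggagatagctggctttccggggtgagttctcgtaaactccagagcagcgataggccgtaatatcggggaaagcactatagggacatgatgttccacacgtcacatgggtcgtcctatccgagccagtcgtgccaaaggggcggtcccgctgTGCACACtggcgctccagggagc
Mt2, chr8:94172368-94172617: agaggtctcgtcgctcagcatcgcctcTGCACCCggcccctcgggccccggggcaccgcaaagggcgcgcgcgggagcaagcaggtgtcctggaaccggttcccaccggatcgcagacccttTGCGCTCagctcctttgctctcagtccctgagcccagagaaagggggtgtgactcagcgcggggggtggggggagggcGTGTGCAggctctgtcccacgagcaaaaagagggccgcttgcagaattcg
Slc30a1, chr1:191906531-191906780: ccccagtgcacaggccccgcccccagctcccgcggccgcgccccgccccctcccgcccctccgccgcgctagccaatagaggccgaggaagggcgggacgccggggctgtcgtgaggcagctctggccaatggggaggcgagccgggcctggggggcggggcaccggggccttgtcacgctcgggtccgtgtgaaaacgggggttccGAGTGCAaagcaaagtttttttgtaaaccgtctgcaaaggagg
The *Mt1* window holds 1 match, which lies 16 bases before the annotated start, the *Mt2* window holds 3 and the *Slc30a1* window holds 1. The corresponding window of *Mtf1* holds 0, and no window for *Slc39a14* was used here. Of 32817 promoter windows of the same length, 21.4% hold at least 1 match and 1.26% hold 3 or more. With the 50 bases after the start included, the counts are 3 in *Mt1*, 4 in *Mt2*, 2 in *Slc30a1* and 0 in *Mtf1*. Of all windows of that length, 25.7% hold at least 1 match and 1.97% hold 3 or more. The *Mt1* count thus depends on where the window ends, and bases further downstream were not searched. If the start in use lies downstream of the RefSeq start, elements near it may have been missed. An antioxidant response element, searched as TGACNNNGC on both strands, has 1 match in the 250 bases of *Mt2* and 1 in those of *Slc30a1*. Those of *Mt1* and *Mtf1* hold 0, and 10.2% of all windows hold the element. The 0 covers the searched bases only and does not show that *Mt1* lacks the element nearby. No match to the antioxidant element overlaps a match to the metal response element in these windows. A match is a string of letters and does not show that a factor was bound.

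Counts on genes summed to 20860262 to 26501093 in the WT and to 22061526 to 29273758 in the KL-/- libraries, so that 3 counts equal 0.102 to 0.144 CPM, the count relative to the scaled library size. The genotypes could be taken only from the labels, because *Kl* itself was not among the genes counted. The labels give 7 libraries the same batch date, and KL-/- replicate 3 a later date of its own, so batch and animal cannot be told apart there. The 8 skeletal muscle fibre genes examined, among them *Ckm* and *Acta1*, summed to 148000 to 169000 CPM in the WT and to 172000 to 217000 CPM in the KL-/- libraries, without overlap. Of the 8 genes, 0 passed edgeR's quasi-likelihood test and 1 had an unadjusted p under 0.05, against 14.0% and 32.1% of all genes. DESeq2 called 3 of them, limma-voom 2 and edgeR's likelihood ratio test 2, where these tools called 19.6%, 14.1% and 16.9% of all genes. In whole muscle, fewer cells of a type and less RNA per cell cannot be told apart. All CPM values are scaled by TMM factors, and fold changes are KL-/- over WT.

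None of the 5 genes passed an FDR of 0.05 in edgeR's quasi-likelihood test with Benjamini-Hochberg adjustment, which called 14.0% of all genes in either direction. At an unadjusted p under 0.05 the count was 3, namely *Mt1*, *Mt2* and *Slc39a14*, and 32.1% of all genes met that threshold. DESeq2 called 2 of the 5 genes and 19.6% of all genes, limma-voom called 1 and 14.1%, and edgeR's likelihood ratio test called 3 and 16.9%. *Mt1* and *Mt2* had higher mean levels in KL-/- muscles with a wide spread, *Slc39a14* had lower levels, and *Mtf1* and *Slc30a1* had nearly equal means. The genotypes did not overlap in 1 of the 5 genes, *Slc39a14*, which was lower, whereas 19.7% of all genes did not overlap in either direction and 9.47% were lower without overlap.

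*Mt1* was measured at 7.06, 8.14, 6.86 and 6.49 CPM in WT replicates 1 to 4, from 173 to 181 counts. In KL-/- replicates 1 to 4 it was measured at 13, 8.11, 38.8 and 11 CPM, from 372, 170, 935 and 292 counts. Replicate 3 of the KL-/- group lay far above the other libraries, replicates 1 and 4 lay above every WT library, and replicate 2 lay within the WT range, so the genotypes overlapped. The means were 7.14 ± 0.708 CPM in WT and 17.7 ± 14.2 CPM in KL-/- muscles (SD, n = 4 each). The log2 fold change was 1.31 with an SE of 0.44 and a 95% interval of 0.33 to 2.30 (FDR = 0.0735, quasi-likelihood test). A two-sided exact permutation test of the means over the 70 relabelings of the samples gave p = 0.0571, where the smallest p possible is 0.0286.

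*Mt2* was measured at 1.84, 2.22, 1.22 and 1.15 CPM in the WT libraries, from 32 to 48 counts. In KL-/- replicates 1 to 4 it was measured at 5.30, 1.96, 23.5 and 3.58 CPM, from 152, 41, 567 and 95 counts. The order of the KL-/- libraries was the same as for *Mt1*, with replicate 3 highest and replicate 2 within the WT range. The means were 1.61 ± 0.513 and 8.58 ± 10 CPM (SD, n = 4 each), and the log2 fold change was 2.44 with an SE of 0.75 and a 95% interval of 0.77 to 4.11 (FDR = 0.0575, quasi-likelihood test). The exact permutation test of the means again gave p = 0.0571. Exact 95% Poisson intervals, which cover counting error only, ran from 21.6 to 25.5 CPM in KL-/- replicate 3 and from 1.40 to 2.65 CPM in KL-/- replicate 2, so counting error was small beside the spread between these libraries.

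**Figure D1:**
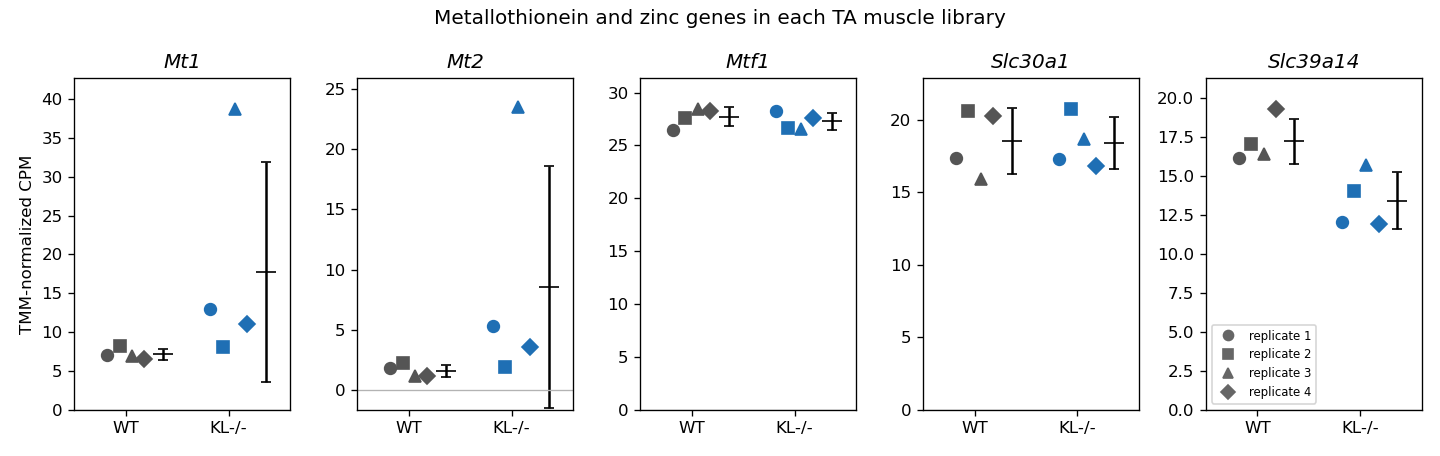
TMM-normalized CPM (vertical axes, linear, each gene on its own scale) of the 5 genes in the 4 WT and 4 KL-/- libraries, where each symbol is a replicate and the bar is the mean ± SD. KL-/- replicate 3 stands at 38.8 CPM for *Mt1* and 23.5 CPM for *Mt2*, all KL-/- libraries lie below all WT libraries for *Slc39a14*, and the genotypes overlap for *Mtf1* and *Slc30a1*.

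The spread of the metallothioneins between KL-/- libraries was among the widest of all genes. On the log2 CPM scale, the SD over the 4 KL-/- libraries was 0.98 for *Mt1* and 1.51 for *Mt2*, at percentiles 99.0 and 99.7 of all genes, whose median SD was 0.16. Over the WT libraries the SD was 0.14 for *Mt1*, the same as the median of all genes at 0.14, and 0.44 for *Mt2*, at percentile 91.1. *Mtf1* was at percentile 5.90 in WT and 3.95 in KL-/- muscles, so the gene for the zinc-sensing factor was among the least variable. Percentiles of the SD describe these libraries and were not tested. They rank all genes without regard to level, and counting error, larger at low counts, also enters the SD. *Mt2* had 32 to 48 counts per WT library and *Mtf1* had 597 to 790. KL-/- replicate 3, highest for both metallothioneins, has its own batch date, so mouse and batch cannot be told apart in this spread.

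With KL-/- replicate 3 left out, the KL-/- means were 10.7 ± 2.45 CPM for *Mt1* and 3.61 ± 1.67 CPM for *Mt2* (SD, n = 3). The log2 fold changes were then 0.59 with an SE of 0.16 (FDR = 0.0650) and 1.21 with an SE of 0.35 (FDR = 0.0749), by the same quasi-likelihood test, in which 6.07% of all genes were called. Leaving out KL-/- replicate 2, the library in the WT range, gave log2 fold changes of 1.56 for *Mt1* (FDR = 0.0294) and 2.76 for *Mt2* (FDR = 0.0231). Whether a metallothionein gene passed the threshold thus turned on 1 library, while both differences were positive in every fit with a library left out.

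**Figure D2:**
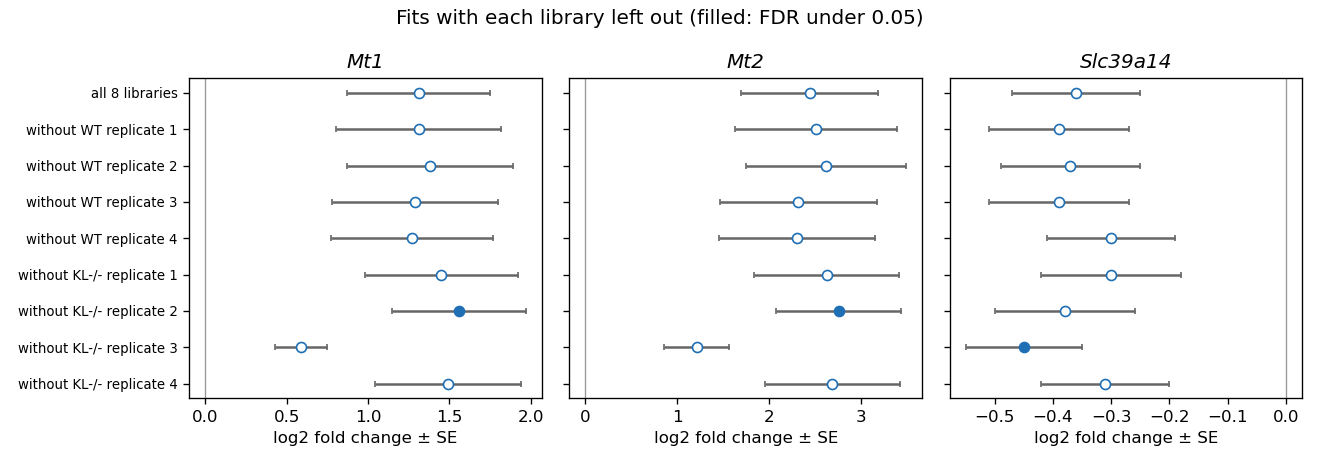
Log2 fold changes of *Mt1*, *Mt2* and *Slc39a14* (points, horizontal axes, with bars of 1 SE) for all 8 libraries and with each library left out in turn, filled where the FDR is under 0.05. The fold changes of *Mt1* and *Mt2* are lowest without KL-/- replicate 3, at 0.59 and 1.21, and filled without KL-/- replicate 2, whereas that of *Slc39a14* is filled without KL-/- replicate 3, at −0.45.

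The 2 metallothionein genes moved together across libraries but in unequal proportion. The Pearson correlation of their log2 CPM was 0.99 over the 8 libraries and 0.98 over the 7 without KL-/- replicate 3, as a description of libraries that also differ in depth and genotype. The counts of *Mt1* per count of *Mt2* were 3.84, 3.67, 5.62 and 5.66 in WT replicates 1 to 4 and 2.45, 4.15, 1.65 and 3.07 in KL-/- replicates 1 to 4. The ratio was lowest in KL-/- replicate 3, where both genes were highest, and KL-/- replicate 2 lay within the WT range. Mean ratios were 4.70 ± 1.09 in WT and 2.83 ± 1.05 in KL-/- muscles (SD, n = 4 each), and the KL-/- mean was 0.602 of the WT mean, with 0.509 to 0.686 when each library was left out. The summed level of both genes was 8.90, 10.4, 8.08 and 7.64 CPM in WT and 18.3, 10.1, 62.3 and 14.6 CPM in KL-/- replicates 1 to 4.

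*Mtf1*, on chromosome 4 from 124802549 to 124849800 on the plus strand, was measured at 26.5 to 28.5 CPM in WT and 26.6 to 28.3 CPM in KL-/- libraries. The means were 27.7 ± 0.886 and 27.3 ± 0.826 CPM (SD, n = 4 each), and the ranges overlapped almost fully. The log2 fold change was −0.02, with a 95% interval of −0.15 to 0.11 (FDR = 0.807, quasi-likelihood test). Of the exonic bases of *Mtf1*, 721 are overlapped on the other strand by *1110065P20Rik*, which is also counted.

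*Slc30a1*, the plasma membrane zinc exporter, lies on chromosome 1 from 191906781 to 191913247 on the plus strand. It was measured at 17.4, 20.6, 15.9 and 20.3 CPM in WT and 17.3, 20.8, 18.7 and 16.8 CPM in KL-/- replicates 1 to 4. The means of 18.6 ± 2.28 and 18.4 ± 1.77 CPM (SD, n = 4 each) differed by less than the spread within either genotype, and the log2 fold change was −0.01 with a 95% interval of −0.25 to 0.22 (FDR = 0.945, quasi-likelihood test). The level in KL-/- replicate 3 lay within the WT range. An antisense gene that is not among the counted genes, *1700034H15Rik*, overlaps 468 exonic bases of *Slc30a1*.

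*Slc39a14*, the importer, lies on chromosome 14 from 70303467 to 70351424 on the minus strand. It was measured at 16.1, 17.0, 16.4 and 19.3 CPM in WT and 12, 14, 15.7 and 11.9 CPM in KL-/- replicates 1 to 4. Every KL-/- library lay below every WT library, with the closest pair being KL-/- replicate 3 and WT replicate 1. The means were 17.2 ± 1.48 and 13.4 ± 1.80 CPM (SD, n = 4 each), and the log2 fold change was −0.36 with an SE of 0.11 and a 95% interval of −0.61 to −0.12 (FDR = 0.0536, quasi-likelihood test). The exact permutation test of the means gave p = 0.0286, the smallest that 4 against 4 allows. Without KL-/- replicate 3 the log2 fold change was −0.45 (FDR = 0.0407). The counts of *Slc39a14* per count of *Slc30a1* were 0.825 to 1.03 in WT and 0.672 to 0.840 in KL-/- libraries, where KL-/- replicate 3 reached into the WT range.

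Levels between genes were compared per length, as CPM per kilobase of exon (RPKM). In WT muscles *Mt1* was highest at 13.2 ± 1.31 RPKM (SD, n = 4). *Mtf1* at 3.64 ± 0.116, *Slc30a1* at 3.55 ± 0.436, *Slc39a14* at 3.30 ± 0.283 and *Mt2* at 2.89 ± 0.923 RPKM followed, and each of these neighbours in the order differed by less than the larger of their SDs. In KL-/- muscles the means were 32.7 ± 26.1 for *Mt1*, 15.4 ± 18.1 for *Mt2*, 3.58 ± 0.108 for *Mtf1*, 3.52 ± 0.338 for *Slc30a1* and 2.57 ± 0.347 for *Slc39a14*. *Mt2* thus stood last in WT and next to *Mt1* in KL-/- muscles by its mean, with an SD larger than that mean.

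Of the other zinc exporters, 6 of 9 were among the counted genes and 1 passed the test, in the lower direction, in which 6.67% of all genes were called. *Slc30a2* encodes ZnT2, which loads zinc into vesicles. It was measured at 10.2, 12.7, 7.66 and 15.3 CPM in WT and 3.45, 2.10, 4.93 and 2.64 CPM in KL-/- replicates 1 to 4, without overlap. It fell by 1.80 on the log2 scale, with an SE of 0.28 (FDR = 0.00598, quasi-likelihood test), and passed in all 8 fits with a library left out. The other 5 exporters had log2 fold changes between −0.24 (*Slc30a6*) and 0.11 (*Slc30a9*), and the median over the 6 was −0.11, where the median over all genes was −0.016. Of the other zinc importers, 10 of 13 were counted and 1 passed, also in the lower direction. *Slc39a3*, which encodes the importer ZIP3, was measured at 28.0 to 30.3 CPM in WT and 21.9 to 26.6 CPM in KL-/- libraries. It fell by 0.30 on the log2 scale, with an SE of 0.07 (FDR = 0.0306), and passed in 1 of 8 fits with a library left out. The median over the 10 importers was −0.09. *Mt3* and *Mt4* were not among the counted genes. Of the 10 copper-handling genes counted, 0 passed in edgeR's quasi-likelihood test and 5 had an unadjusted p under 0.05, against 32.1% of all genes. DESeq2, limma-voom and the likelihood ratio test each called 1 of the 10, against 19.6%, 14.1% and 16.9% of all genes. Their median log2 fold change was −0.02.

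**Figure D3:**
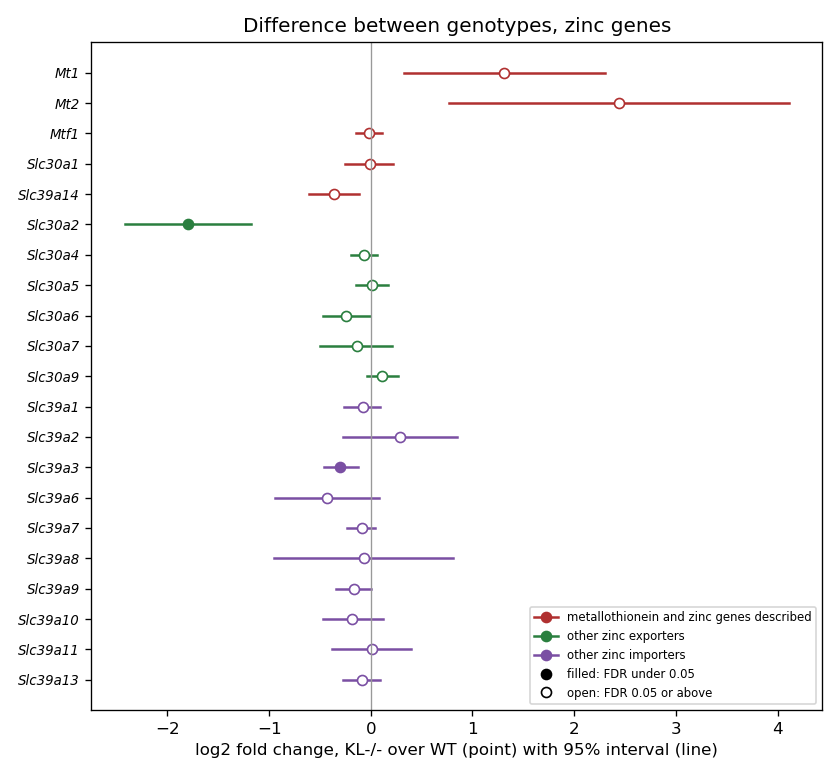
Log2 fold changes, KL-/- over WT (points, horizontal axis), with 95% intervals (lines) for the 5 genes and for the other zinc exporters and importers counted, filled where the FDR is under 0.05. Filled points are *Slc30a2* at −1.80 and *Slc39a3* at −0.30, and the intervals of *Mt1* and *Mt2* are the widest.

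Genes known to respond to glucocorticoids, a hormone class that also acts on metallothionein genes, were examined from a list of 12. Of these, 7 were higher in KL-/- muscles and 0 lower in the quasi-likelihood test, against 7.35% of all genes called higher, and the median log2 fold change was 0.67. The list was chosen with earlier results of these data known, so this count is a description. A link between these genes and *Mt1* or *Mt2* was not tested. *Fkbp5*, which encodes a co-chaperone of the glucocorticoid receptor, was measured at 43.5, 29.0, 23.2 and 36.0 CPM in WT and 103, 32.4, 135 and 78.4 CPM in KL-/- replicates 1 to 4 (log2 fold change 1.40, FDR = 0.0354). Its KL-/- libraries had the same order as those of *Mt1* and *Mt2*, with replicate 3 highest and replicate 2 within the WT range. *Ddit4*, which encodes an inhibitor of mTOR signalling, was measured at 5.41 to 9.43 CPM in WT and 17.0, 16.1, 141 and 41.5 CPM in KL-/- replicates 1 to 4 (log2 fold change 2.85, FDR = 0.0266). The others that rose were *Per1* (2.04), *Cebpd* (2.37), *Zbtb16* (1.04), *Klf15* (0.73) and *Klf9* (0.38). The remaining 5 of the list did not pass. They were *Errfi1* (0.60, FDR = 0.127), *Tsc22d3* (0.34, FDR = 0.305), *Sgk1* (0.09, FDR = 0.729), *Pdk4* (−0.35, FDR = 0.711) and *Nr3c1*, all by the quasi-likelihood test. *Zbtb16* had its highest level in KL-/- replicate 1, at 137 CPM, and not in replicate 3, at 116 CPM. Without KL-/- replicate 3, 3 of the 12 passed, namely *Cebpd*, *Zbtb16* and *Ddit4*, in a fit that called 6.07% of all genes. With all 8 libraries the share called in either direction was 14.0%. *Nr3c1*, which encodes the glucocorticoid receptor, had mean levels of 120 ± 8.45 CPM in WT and 123 ± 9.81 CPM in KL-/- muscles (SD, n = 4 each) (log2 fold change 0.04, FDR = 0.764).

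**Figure D4:**
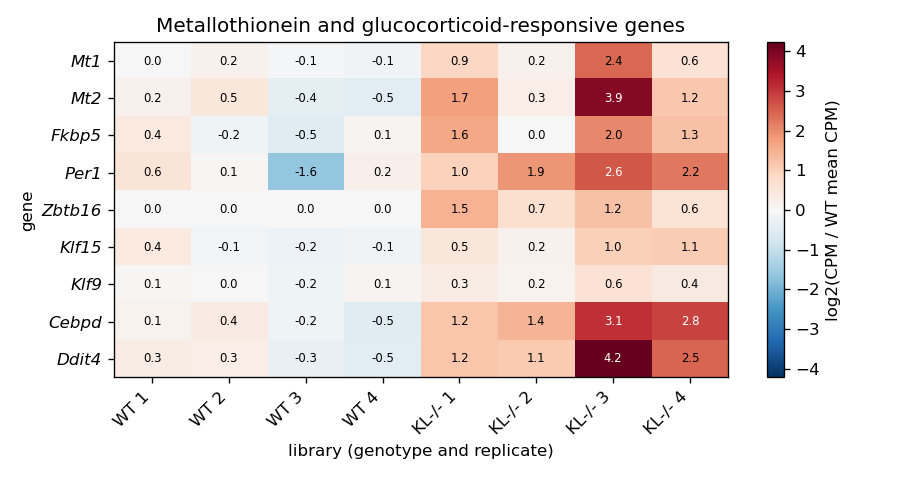
Log2 ratio of each library's CPM to the WT mean (colour and printed values) for *Mt1*, *Mt2* and the 7 glucocorticoid-responsive genes that passed the test, with genes in rows and libraries in columns. KL-/- replicate 3 has the highest value of its gene in *Mt1*, *Mt2*, *Fkbp5*, *Per1*, *Klf9*, *Cebpd* and *Ddit4*, and KL-/- replicate 2 is near the WT libraries for *Mt1*, *Mt2* and *Fkbp5*.

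Of 8 acute phase and STAT3 genes counted, 2 were higher and 0 lower, against 7.35% and 6.67% of all genes. *Il6ra*, the interleukin-6 receptor gene, was measured at 2.45 to 4.27 CPM in WT and 9.83, 3.58, 14.6 and 5.80 CPM in KL-/- replicates 1 to 4 (log2 fold change 1.36, FDR = 0.0487), again in the order of the metallothioneins. *Cebpb*, which encodes a transcription factor, had a log2 fold change of 0.98 (FDR = 0.0127). *Socs3*, a direct STAT3 target, was measured at 4.24 ± 0.670 and 4.55 ± 1.92 CPM (FDR = 0.801), and KL-/- replicate 3 had the lowest level of all libraries, at 2.65 CPM. Of 9 NRF2 and oxidative stress genes counted, 0 were higher and 1 was lower, against the same 7.35% and 6.67% of all genes. The lower gene was *Hmox1*, which encodes heme oxygenase 1 (log2 fold change −0.62, FDR = 0.0453). Without KL-/- replicate 3, *Cebpb* passed and *Il6ra* and *Hmox1* did not, at an FDR of 0.0228, 0.113 and 0.116, all by the quasi-likelihood test. In that fit 6.07% of all genes were called.

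Among the genes with profiles most like the mean log2 CPM of *Mt1* and *Mt2* over the 8 libraries were *Aldoart1* (Pearson r = 0.986), *Prickle3* (0.973), *Rasl11b* (0.968) and *Pnmt* (0.964). *Aldoart1* was measured at 4.52 to 5.23 CPM in WT and 6.10, 5.06, 9.12 and 5.54 CPM in KL-/- replicates 1 to 4. After the mean of each genotype was subtracted, the most alike included *Aldoart1* (0.984), *Lrrc8a* (0.965), *Rrp1* (0.960) and *Rasl11b* (0.959). These libraries differ in depth, and KL-/- replicate 3 has its own batch date, so the correlations are descriptive. Without KL-/- replicate 3 the r over libraries was 0.942 for *Aldoart1* and 0.836 for *Pnmt*.

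Some markers of other cells in the muscle also differed between genotypes, in a test that called 7.35% of all genes higher and 6.67% lower. Of 8 macrophage markers 3 were lower, with sums of 54.6 to 114 CPM in WT and 40.0 to 66.7 CPM in KL-/- libraries and 40.9 CPM in KL-/- replicate 3. Of 6 fibro-adipogenic progenitor markers 2 were lower, with sums of 732 to 2840 CPM and 398 to 1270 CPM, lowest in KL-/- replicate 3. Of 6 endothelial markers 1 was lower, and of 5 Schwann cell markers 3 were higher. Of 4 adipocyte markers 1 was higher, namely *Fabp4* (log2 fold change 0.27, FDR = 0.03), and the other 3 did not pass. Of the satellite cell and blood cell markers, 0 of 4 and 0 of 2 passed the quasi-likelihood test, DESeq2, limma-voom or edgeR's likelihood ratio test. At an unadjusted p under 0.05 the counts of the last 2 lists were 0 and 1. *Adipoq*, which marks adipocytes, was lowest among KL-/- libraries in replicate 3, at 0.746 CPM. Without KL-/- replicate 3 the counts were 0 of 8 for macrophage, 0 of 6 for progenitor, 1 of 6 for endothelial, 2 of 5 for Schwann cell and 0 of 4 for adipocyte markers. That fit called 6.07% of all genes. No counted marker was at 0 in all libraries, and the part of these cells in the metallothionein and *Slc39a14* values was not tested.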

How the data were processed

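RNA of 8 TA muscles, 4 per genotype, was sequenced. Per the paper's methods the authors used FastQC for quality, STAR for alignment to mm10 and featureCounts for reads per gene, leaving out alignments of low quality. The deposited values are these raw counts, limited to expressed genes. The annotation release and the strand setting are not given in the sources used here. The methods describe mRNA libraries and the labels total RNA.

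The genotypes were compared with edgeR 4.0.16 in R 4.3.3 (TMM factors, a model with genotype only, quasi-likelihood test, Benjamini-Hochberg adjustment, FDR under 0.05), and all 12551 genes passed edgeR's default filter. Log2 CPM used a prior count of 2. Alternatives were DESeq2 1.42.0, limma-voom (limma 3.58.1), edgeR's likelihood ratio test, RLE factors, library totals, other filters, the replicate number as a block, each library left out and, added after seeing the data, the edgeR 3 form of the test. The tests were checked on simulated counts. The p-values measure the spread between these mice, and counts of libraries of a genotype differed by more than sampling noise (chi-square per gene of 9.91 or more).

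The genes described and the lists were chosen with earlier results of these data known. Named are the 5 genes, every list gene with an FDR under 0.05, the genes with the most similar profiles among those whose average log2 CPM was 0 or more (5 over all libraries and 5 after genotype means were subtracted, of which 1 gene is not reported here), and, chosen after their values were seen, *Slc30a6*, *Slc30a9*, *Nr3c1*, *Socs3* and *Adipoq*. Sequences and promoter windows are from GENCODE and RefSeq, and 4 of the 5 genes matched a promoter window.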

Additional observations from a re-analysis of the deposited data

Results flagged for a closer look

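The level of *Mt1* in KL-/- replicate 3, 38.8 CPM, stood apart from the other KL-/- libraries: its gap to the nearest of them was 0.841 of the whole range of the 4, above Dixon's 95% critical value for 4 samples. The same library stood apart for *Mt2*, at 23.5 CPM, with a gap of 0.845 of the range. These are 2 of 16 groups of 4 examined, where chance flags about 1 in 20, and *Mt1* and *Mt2* are not independent since they moved together. The library carries the batch date that no other library has, so the batch and the mouse cannot be told apart.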

How the results depend on the processing

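With other settings, *Mt1* kept a positive and *Slc39a14* a negative log2 fold change, as did *Mt2* a positive. For *Mt1* the FDR passed 0.05 in the likelihood ratio test (1.31, FDR = 0.0195), for *Mt2* in DESeq2 (2.43, FDR = 0.0167) and the likelihood ratio test (2.42, FDR = 0.00542), and for *Slc39a14* with library totals (−0.48, FDR = 0.0178), DESeq2 (−0.36, FDR = 0.0302), limma-voom (−0.38, FDR = 0.0439) and the likelihood ratio test (−0.36, FDR = 0.0377). Over all settings that keep the 8 libraries, the FDR ran from 0.0195 to 0.144 for *Mt1*, 0.00542 to 0.155 for *Mt2* and 0.0178 to 0.112 for *Slc39a14*. The cause was not tested. Library totals moved the median of all genes from −0.016 to −0.134, and of 2619 genes called 18.8% were higher, against 52.4% of 1759.

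With each library left out, log2 fold changes ran from 0.59 to 1.56 for *Mt1*, 1.21 to 2.76 for *Mt2*, −0.04 to 0 for *Mtf1*, −0.08 to 0.04 for *Slc30a1* and −0.45 to −0.30 for *Slc39a14*, and the genes called from 762 (without KL-/- replicate 3) to 2755 (without KL-/- replicate 2), with 780 and 775 without WT replicates 2 and 3 and 778 without KL-/- replicate 4. The sign of *Slc30a1* turned in 4 of these fits, at 0.04 without WT replicate 2, 0.03 without WT replicate 4, 0.02 without KL-/- replicate 1 and 0.03 without KL-/- replicate 4. Among the 12 genes that passed in the zinc, glucocorticoid, acute phase and NRF2 lists, 62 of 204 alternative fits lost the call and none turned in sign. Limma-voom called 4 of the 12 glucocorticoid-responsive and 1 of the 8 acute phase genes, against 7 and 2, and DESeq2 called 6 of 8 macrophage, 2 of 6 endothelial and 3 of 6 progenitor markers, against 3, 1 and 2, while the likelihood ratio test called 5 macrophage markers. Of all genes, limma-voom called 14.1%, DESeq2 19.6% and the likelihood ratio test 16.9%.

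With the replicate number as a block, 671 genes were called, and *Mt1*, *Mt2* and *Slc39a14* had log2 fold changes of 1.06, 1.97 and −0.37 with an FDR of 0.125, 0.104 and 0.112. The block does not reflect a known pairing: the correlations of same-numbered mice were −0.146, 0.181, −0.368 and 0.017, and only WT replicate 2 correlated best with its own number.

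Depth limits *Mt2* most, at 32 to 48 counts per WT library. The genotypes are 4 mice each of 1 sex and age, and the strand and annotation of the counting are unknown.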
